A study of Mus musculus with 21 samples.

Results

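The genes described here encode the major histocompatibility complex (MHC, called H2 in the mouse) and the proteins that prepare peptides for it. They were chosen by name: every symbol listed by the authors that starts with H2-, and Cd74, Ciita, Nlrc5, Tap1, Tap2, Tapbp, B2m, Psmb8, Psmb9 and Psmb10. This gave 55 of 55592 symbols listed. Of these, 41 were paired with an Ensembl identifier and could be found in the count tables, 39 in the table of raw counts and 41 in the table of normalized counts. The 14 members without an identifier, mostly H2-M genes, could not be linked to counts. Some of them entered only the search of promoters. By name, 40 members belonged to class I (29 with an identifier), 12 to class II (11 with an identifier) and 3 to neither (1 with an identifier, H2-Ke6, which is a steroid dehydrogenase gene within the complex).

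Class I molecules are made by nearly every nucleated cell. A heavy chain (H2-K1 or H2-D1 in this strain) pairs with beta-2 microglobulin (B2m) and presents peptides cut from the cell's own proteins to CD8 T cells. The peptides are cut by the proteasome, whose inducible form carries Psmb8, Psmb9 and Psmb10, are carried into the endoplasmic reticulum by the Tap1-Tap2 pump, and are loaded with the help of tapasin (Tapbp). Class II molecules (H2-A and H2-E) are made mainly by dendritic cells, B cells and macrophages and present peptides taken up from outside to CD4 T cells. Their chains travel with the invariant chain Cd74, exchange it for peptide with the help of H2-DM, and are held back by H2-O. The coactivators Ciita and Nlrc5 switch on the promoters of class II and of class I, respectively, and interferon gamma induces both sets. In the kidney, tubule cells can gain class II molecules during inflammation.

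RNA was sequenced from whole kidneys of 17 female mice that all lacked apolipoprotein E (apoE knockout on the C57BL/6J background), so that the controls also carried this hyperlipidemic genotype. The mice were 4 weeks old when the diets began, were fed for 14 weeks and were 18 weeks old at the end. The Control group (5 mice) received the control diet, the Adenine group (6 mice) a diet with adenine, which damages the tubules and leads to chronic kidney disease, and the Adenine + IMC group (6 mice) the adenine diet with iodomethylcholine (IMC), an inhibitor of the production of trimethylamine by gut bacteria. The 4 Control + IMC mice among the 21 samples in the labels were not analysed here.

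The total count per mouse was 7716126 to 11680809 in the Control group, 5444833 to 7673215 in the Adenine group and 5728589 to 8305968 in the Adenine + IMC group. Markers of the kidney tubule were present in every group. The summed level of 5 proximal tubule markers was 9524 to 14500 CPM (read counts relative to a common library size) in Control, 1367 to 5603 in Adenine and 2291 to 4655 in Adenine + IMC. Residual Apoe transcript was read at 6.11 to 14.9 CPM in Control and at 12.04 to 26.7 and 11.9 to 24.5 CPM in the groups fed adenine. Levels throughout are CPM on library sizes scaled by the trimmed mean of M values (TMM) over the 17 mice. One library stood apart: mouse 311 of the Adenine + IMC group was the highest of the 17 mice for 20 of the 27 class I members and 9 of the 11 class II members listed in both tables, beside 12.48% of all genes. Some results that rest on mouse 311 are also given without it. Ranges of the Adenine + IMC group include mouse 311 unless stated otherwise.

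Of the members with an identifier, 36 lay on chromosome 17, between 33915899 and 37483552 (GRCm38), and the others were Ciita on chromosome 16, Cd74 on 18, B2m on 2, and Nlrc5 and Psmb10 on 8. The class II genes and the genes for peptide supply were neighbours, in the order H2-Oa, H2-DMa, H2-DMb2, H2-DMb1, Psmb9, Tap1, Psmb8, Tap2, H2-Ob, H2-Ab1, H2-Aa, H2-Eb1 and H2-Eb2. RefSeq promoters (GRCm38.p6, 250 bases before to 50 bases after a start site) were found for 38 members, 29 of class I and 8 of class II. Of these 38 members, 29 had an Ensembl identifier. The class I promoter counts therefore include genes without counts here, such as H2-M1, H2-M9 and H2-M11. They were searched on both strands for the Y box core ATTGG, the X2 core TGACG, the X1 core AGCAAC, the kappaB sequence GGGATTCCC, the interferon-stimulated response element (ISRE) as GAAANNGAA and the interferon gamma-activated site (GAS) as TTCNNNGAA. No hits of different motifs shared bases (0 overlaps). The X and Y boxes are the elements through which Ciita and Nlrc5, which do not bind DNA themselves, reach their targets.

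The Y box core was present in 8 of the 8 class II and 24 of the 29 class I promoters, and in 37.4% of all 32851 promoters. The X1 core stood 20 to 40 bases before a Y box core on the same strand in 4 class II genes, 0 class I genes and 0.341% of all promoters. The excerpts shown first are these 4 promoters and that of H2-Aa, with the X1 or X2 core and the Y box core in capitals. The distance from the first letter of X1 to the first letter of the Y box core was 33 bases in H2-Eb1 and H2-Eb2, 34 in H2-Oa and 31 in H2-Ob, and H2-Aa had the X2 core 26 bases before its Y box core. Each is written 5′ to 3′ on the strand of its gene.
H2-Aa, chr17:34287832-34287931, minus strand: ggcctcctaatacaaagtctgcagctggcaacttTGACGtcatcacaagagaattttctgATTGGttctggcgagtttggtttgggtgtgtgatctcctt
H2-Eb1, chr17:34305748-34305847, plus strand: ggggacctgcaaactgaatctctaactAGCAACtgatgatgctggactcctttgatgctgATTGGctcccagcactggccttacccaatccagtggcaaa
H2-Eb2, chr17:34325515-34325614, plus strand: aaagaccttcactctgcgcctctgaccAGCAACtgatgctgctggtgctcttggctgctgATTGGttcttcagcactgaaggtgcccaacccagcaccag
H2-Oa, chr17:34092276-34092375, plus strand: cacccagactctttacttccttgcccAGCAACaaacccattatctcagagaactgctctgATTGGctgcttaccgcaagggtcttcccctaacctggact
H2-Ob, chr17:34238788-34238887, plus strand: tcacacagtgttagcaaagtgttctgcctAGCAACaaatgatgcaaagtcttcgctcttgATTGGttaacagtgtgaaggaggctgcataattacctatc

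The X2 core stood 20 to 40 bases before a Y box core on the same strand in 5 class I genes (B2m, H2-D1, H2-K1, H2-M3 and H2-Q7), 1 class II gene (H2-Aa) and 0.685% of all promoters. In the classical class I genes and B2m the distance was 25 bases in each. H2-K1 and H2-D1 also held the kappaB sequence 94 bases before the Y box core, and this 9-base sequence was found in 4 class I genes (H2-D1, H2-K1, H2-Q6 and H2-Q7), 0 class II genes and 0.353% of all promoters. B2m held an ISRE match 86 bases before its Y box core. ISRE matches were found in 3 class I genes (B2m, H2-T22 and H2-T23) and 8.56% of all promoters, and GAS matches in 3 class I genes (H2-M11, H2-M3 and Psmb8), 1 class II gene (H2-DMb2) and 8.3% of all promoters. The X2 core alone was in 20.8% and the X1 core alone in 14.8% of all promoters. The excerpts of the class I promoters, with the kappaB or ISRE match, the X2 core and the Y box core in capitals, are as follows.
H2-K1, chr17:34000334-34000463, minus strand: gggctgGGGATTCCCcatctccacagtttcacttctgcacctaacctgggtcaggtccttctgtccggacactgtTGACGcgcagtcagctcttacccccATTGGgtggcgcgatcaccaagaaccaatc
H2-D1, chr17:35262918-35263057, plus strand: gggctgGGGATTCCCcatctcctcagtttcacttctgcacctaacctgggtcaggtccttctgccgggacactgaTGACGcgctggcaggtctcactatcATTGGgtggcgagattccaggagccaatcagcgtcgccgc
B2m, chr2:122147534-122147673, plus strand: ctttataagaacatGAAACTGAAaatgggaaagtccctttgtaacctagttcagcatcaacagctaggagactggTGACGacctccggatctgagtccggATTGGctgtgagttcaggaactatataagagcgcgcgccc

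The first comparison asked how the adenine diet changed these genes. All 11 class II members tested were higher in Adenine than in Control, with a median log2 fold change of 2.85 and a range of 2.13 to 4.68. Of the 23 class I members tested, 22 were higher and 0 lower, with a median log2 fold change of 1.70 and a range of 0.18 to 4.90. Over all 14612 genes tested by edgeR's quasi-likelihood test, 35.1% were higher and 32.2% lower at an adjusted p-value below 0.1, and the median log2 fold change was 0.02. The Adenine and Control mice did not overlap, Adenine being above, for 11 of 11 class II and 19 of 27 class I members listed in both tables, beside 17.55% of all genes. In whole kidney RNA, more cells of a type and more RNA per cell cannot be told apart.

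H2-Aa (chr17:34282744-34287823), the alpha chain of H2-A, was at 110.0, 113.5, 113.4, 127 and 133 CPM in the Control mice, and at 553 to 1297 CPM (median 867) in the Adenine mice. No Adenine mouse came near the Control range, and the log2 fold change was 2.88 (SE 0.20, edgeR adjusted p = 7.7e-08). H2-Ab1 (chr17:34257689-34269419), its beta chain, went from 93.1, 107, 106, 121 and 141 CPM to 510 to 1079 CPM (median 763), a log2 fold change of 2.74 (SE 0.20, edgeR adjusted p = 1.25e-07). H2-Eb1 (chr17:34305867-34316674), the beta chain of H2-E, whose alpha chain gene is a pseudogene in the C57BL/6 strain (listed as H2-Ea-ps), was read at 105.0, 109, 106, 121 and 134 CPM in Control. It stood at 516 to 1201 CPM (median 837) in Adenine, a log2 fold change of 2.85 (SE 0.20, edgeR adjusted p = 1.01e-07). The groups were apart for the 3 chains, and the lowest Adenine mouse was mouse 207 and the highest mouse 308 for each of them.

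Cd74, the invariant chain, was the most abundant class II member. It was at 268, 271, 274, 321 and 344 CPM in Control and at 1502 to 3037 CPM (median 2190) in Adenine, with a log2 fold change of 2.88 (SE 0.19, edgeR adjusted p = 5.93e-08). Per kilobase of exon, mean Cd74 was 176 CPM in Control and 1277 in Adenine. The chains it travels with were at 31.4 (H2-Aa), 44.3 (H2-Ab1) and 59.2 (H2-Eb1) CPM per kilobase in Control and at 228, 291 and 419 in Adenine, the same order in both groups. Ciita (chr16:10480059-10528418), the coactivator that class II transcription depends on, was at 7.27, 6.64, 7.58, 8.70 and 7.45 CPM in Control and at 31.7 to 63.8 CPM (median 38.6) in Adenine. The lowest Adenine mouse was thus well above the highest Control mouse, and the log2 fold change was 2.56 (SE 0.19, edgeR adjusted p = 1.42e-07).

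**Figure D1:**
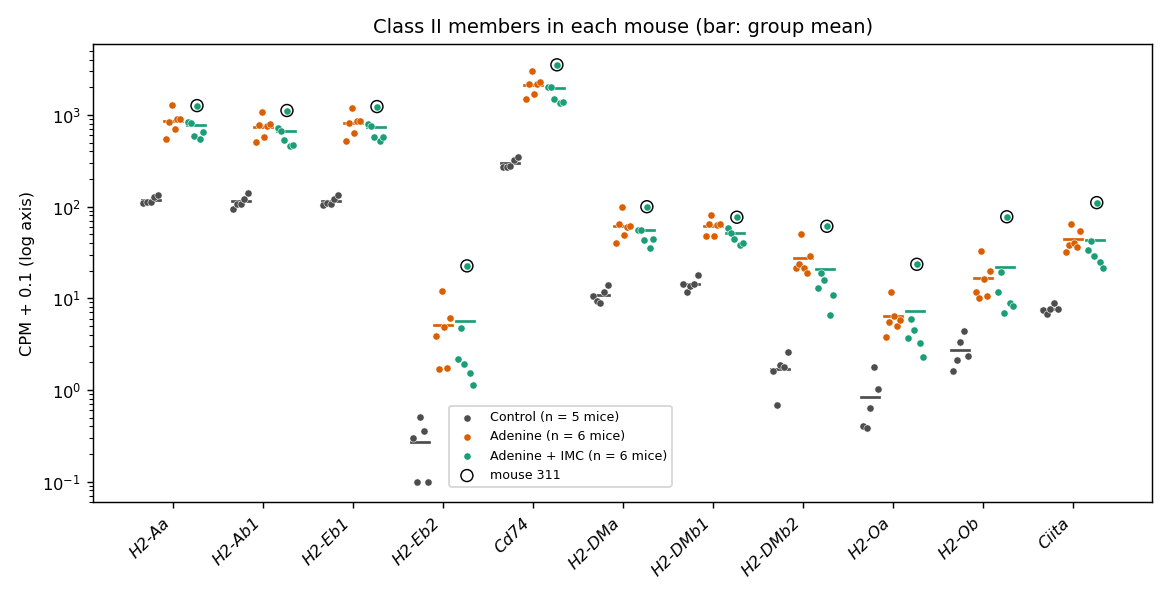
Level of each class II member in each mouse, as CPM plus 0.1 on a log axis, with a point per mouse, a bar at the group mean and a ring around mouse 311. For each of the 11 genes the 6 Adenine and the 6 Adenine + IMC mice lie above the 5 Control mice, and mouse 311 is the highest of the 17 mice for 9 genes.

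The genes for peptide exchange rose as well. H2-DMa and H2-DMb1, which form the H2-DM exchange factor, went from 8.80 to 14.0 and 11.6 to 18.0 CPM in Control to 39.5 to 97.9 and 47.8 to 81.5 CPM in Adenine, with log2 fold changes of 2.54 (SE 0.22) and 2.13 (SE 0.16), the latter the lowest of the class. H2-DMb2, a second beta chain gene, was at 0.578 to 2.48 CPM in Control and 19.0 to 50.1 CPM in Adenine, a log2 fold change of 4.08 (SE 0.34, edgeR adjusted p = 4.12e-07). H2-DMb1 and H2-DMb2 share sequence: 22.7% and 25.9% of their 50-base windows are found in another gene, so the split of reads between them is uncertain.

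H2-O, which restrains H2-DM and is made mainly by B cells and some dendritic cells, was low in Control. H2-Ob (chr17:34238903-34254414) was at 1.51, 2.02, 3.25, 4.29 and 2.22 CPM in Control and at 9.89 to 32.6 CPM (median 13.8) in Adenine. Mouse 308 was again the highest, the groups did not overlap, and the log2 fold change was 2.67 (SE 0.37, edgeR adjusted p = 3.66e-05). H2-Oa, its partner, was at 0.289 to 1.69 CPM in Control and 3.69 to 11.5 CPM in Adenine (log2 fold change 3.06, SE 0.43). Of the 50-base windows of H2-Oa, 15.5% are found in another gene. H2-Eb2, a further H2-E beta chain gene, had a total of 7 reads over the 5 Control mice, 2 of them at 0, and 1.59 to 12.03 CPM in Adenine. Its log2 fold change of 4.68 (SE 0.75) rests on these few Control reads.

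The classical class I genes had log2 fold changes below those of the 11 class II members. H2-K1 (chr17:33996017-34000347) was at 234, 266, 255, 265 and 300 CPM in Control and at 729 to 1333 CPM (median 932) in Adenine, a log2 fold change of 1.90 (SE 0.15, edgeR adjusted p = 2.71e-07). H2-D1 (chr17:35262730-35267499) was at 205, 242, 230, 230 and 258 CPM in Control and at 602 to 1079 CPM (median 786) in Adenine, a log2 fold change of 1.80 (SE 0.14, edgeR adjusted p = 2.86e-07). The groups were apart for both, and the levels per kilobase of exon were alike between the 2 genes, 89.8 and 90.4 CPM in Control and 330 and 311 in Adenine. B2m (chr2:122147686-122153083), the light chain, was at 355, 381, 361, 458 and 457 CPM in Control and at 963 to 1683 CPM (median 1054) in Adenine, a log2 fold change of 1.59 (SE 0.16, edgeR adjusted p = 3e-06). Per kilobase it was the most abundant class I member, with means of 468 CPM in Control and 1387 in Adenine. Of the 50-base windows of H2-K1 and H2-D1, 9.63% and 12.8% are found in another gene, and those of B2m in 0%.

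The class I regulator and the genes for peptide supply rose with them. Nlrc5 (chr8:94434356-94527272) was at 11.0, 14.7, 11.7, 11.95 and 14.5 CPM in Control and at 51.9 to 113 CPM (median 59.4) in Adenine, a log2 fold change of 2.47 (SE 0.21, edgeR adjusted p = 6.41e-07). The groups did not overlap. Tap1 (chr17:34187553-34197225) was at 20.9, 26.7, 26.3, 29.1 and 31.5 CPM in Control and at 72.8 to 155 CPM (median 95.7) in Adenine, with no overlap (log2 fold change 1.95, SE 0.18, edgeR adjusted p = 1.23e-06). Tap2, which forms the peptide pump with Tap1, was at 26.0 to 30.0 CPM in Control and 53.3 to 91.4 CPM in Adenine (log2 fold change 1.29, SE 0.13), and Tapbp at 110 to 140 and 212 to 333 CPM (log2 fold change 1.19, SE 0.12). The groups did not overlap for Tap2 or Tapbp either. Of the 50-base windows of Tapbp, 23.2% are found in another gene.

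The inducible subunits of the proteasome were all higher in Adenine. Psmb8 (chr17:34197721-34201454) was at 8.68, 9.39, 9.62, 9.35 and 15.3 CPM in Control, where mouse 403 stood above the others, and at 45.5 to 98.9 CPM (median 58.0) in Adenine. The log2 fold change was 2.63 (SE 0.21, edgeR adjusted p = 3.11e-07). Psmb9 (chr17:34181987-34187764) was at 8.28, 10.5, 8.67, 10.1 and 11.1 CPM in Control and at 27.6 to 68.5 CPM (median 34.9) in Adenine, a log2 fold change of 2.05 (SE 0.23, edgeR adjusted p = 5.42e-06). Psmb10 rose from 11.4 to 15.4 CPM to 33.3 to 63.5 CPM, a log2 fold change of 1.77 (SE 0.18). Psmb9 and Tap1 are transcribed away from each other, and their annotated exons overlap (Psmb9 ends at 34187764 and Tap1 starts at 34187553). The strand setting of the counting is not given in the sources used here, so reads of that stretch are uncertain.

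Each of these subunits takes the place of a constitutive one, so the ratio of the pair within a mouse does not depend on how the library was scaled. Psmb5 and Psmb6 did not pass the test (log2 fold changes 0.00 and 0.04, edgeR adjusted p = 0.981 and 0.739) and Psmb7 was lower in Adenine (−0.39, edgeR adjusted p = 0.000258). The log2 ratio of reads of Psmb8 to Psmb5, with 0.5 added to each count, was −1.22, −1.30, −0.92, −1.16 and −0.80 in the Control mice and 1.10 to 1.92 in the Adenine mice. The means were −1.08 ± 0.21 (SD, n = 5) and 1.53 ± 0.33 (SD, n = 6), a 6.10-fold difference in the ratio (two-sided exact permutation p = 0.00433, adjusted over 9 tests 0.00649). Every Adenine mouse had more reads of Psmb8 than of Psmb5, and every Control mouse fewer. The ratio of Psmb9 to Psmb6 went from −3.26 ± 0.19 to −1.32 ± 0.46 (3.83-fold) and that of Psmb10 to Psmb7 from −2.65 ± 0.17 to −0.52 ± 0.44 (4.36-fold). Their exact permutation p was also 0.00433, which is the smallest that 5 against 6 mice can give.

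**Figure D2:**
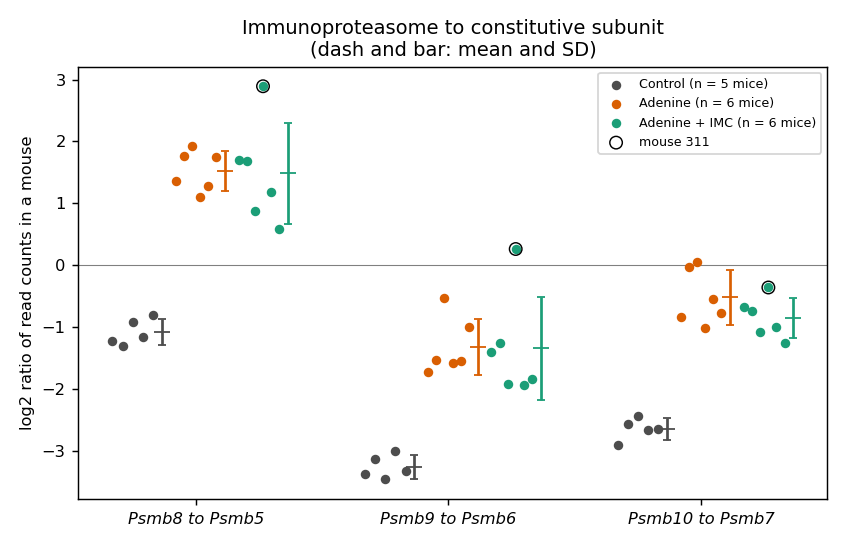
Log2 ratio of read counts of each immunoproteasome subunit to the constitutive subunit it replaces, with a point per mouse, the group mean and its SD beside the points, and a ring around mouse 311. The Control mice lie below all mice fed adenine for each of the 3 ratios, and mouse 311 is the only one with a Psmb9 to Psmb6 ratio above 0 (0.26).

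The nonclassical class I genes, which lie in the H2-Q, H2-T and H2-M regions and have varied roles in recognition by natural killer and unconventional T cells, were uneven. All 6 H2-Q genes tested, 3 of 4 H2-T genes and both H2-M genes tested were higher in Adenine, beside 35.1% of all genes. H2-Q7, a gene of the Qa-2 group, was at 24.3, 27.4, 20.7, 25.6 and 29.4 CPM in Control and at 57.6 to 135 CPM (median 72.9) in Adenine, a log2 fold change of 1.71 (SE 0.21, edgeR adjusted p = 1.31e-05). H2-Q6 of the same group was at 41.0, 53.4, 41.9, 41.8 and 66.1 CPM in Control and at 70.8 to 136 CPM (median 91.7) in Adenine, a log2 fold change of 0.997 (SE 0.19, edgeR adjusted p = 0.000448). The groups did not overlap for either gene. Of their 50-base windows, 26.5% and 35% are found in another gene, so the division of reads among H2-Q genes is uncertain.

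H2-T23, which encodes Qa-1, a ligand of inhibitory receptors on natural killer cells, was at 75.0, 74.9, 83.7, 68.2 and 79.2 CPM in Control and at 73.8 to 148 CPM (median 101) in Adenine. The groups overlapped, and the log2 fold change was 0.46 (SE 0.15, edgeR adjusted p = 0.0174). H2-T22 was the only class I member tested that did not pass: 44.3 to 60.4 CPM in Control against 48.8 to 72.3 CPM in Adenine (log2 fold change 0.18, SE 0.11, edgeR adjusted p = 0.171). It passed when the libraries were scaled by the upper quartile (0.24, edgeR adjusted p = 0.0779), when they were scaled by their totals alone (0.48, adjusted p = 0.00228) and without mouse 207 (0.23, adjusted p = 0.0724), and 53.5% of its 50-base windows are found in another gene, chiefly H2-T10. At the other end, H2-M2 had 14 reads in all over the 5 Control mice and 6.74 to 21.2 CPM in Adenine (log2 fold change 4.90, SE 0.48). H2-Q10, a secreted class I gene known from the liver, was at 0.404 to 1.01 CPM in Control and 2.57 to 9.91 CPM in Adenine (log2 fold change 2.80, SE 0.41), and mouse 207, the lowest for H2-Aa, H2-Ab1 and H2-Eb1, was the highest for it. Of the 50-base windows of H2-Q10, 19.1% are found in another gene, chiefly H2-Q7 and H2-K1, so the origin of its reads is uncertain.

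**Figure D3:**
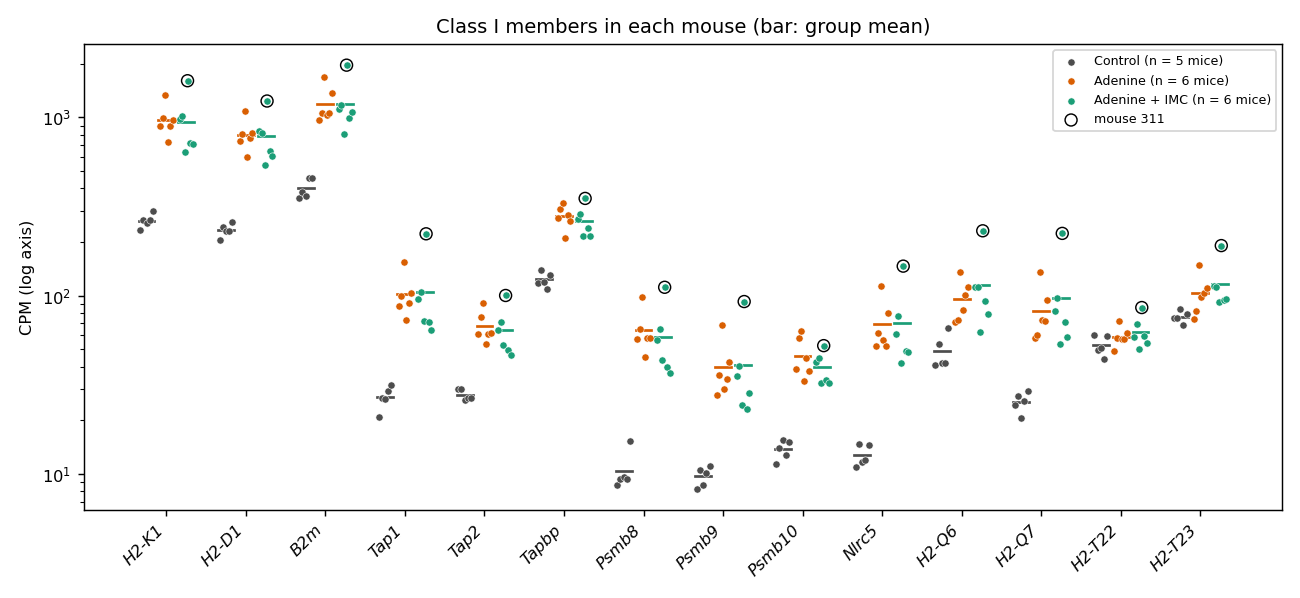
Level of 14 class I members in each mouse, as CPM on a log axis, with a point per mouse, a bar at the group mean and a ring around mouse 311. The Adenine mice lie above the Control mice for H2-K1 to H2-Q7, and the groups overlap for H2-T22 and H2-T23.

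The members not tested were few and low. H2-Bl, H2-M5, H2-M6-ps, H2-T-ps and H2-Ke6 were below the filter on low counts, and H2-M10.1 and H2-Q1 were listed in the normalized table only. H2-Bl, annotated as a polymorphic pseudogene, was the only class I member with every Adenine mouse below every Control mouse. It had 33 reads over the 5 Control mice and 13 over the 6 Adenine mice. H2-M5 had 13 and 52 reads in the same groups. H2-Ke6, which does not present antigen, had 28 and 39 reads.

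The second comparison asked whether IMC changed these genes in mice fed adenine. With limma on log2(normalized count + 1), 0 of 11 class II and 0 of 24 class I members were called, as were 0% of the 14696 genes tested (0 at an adjusted p-value below 0.1). At an unadjusted p-value below 0.05, 0 members of either class were higher or lower, beside 3.37% of all genes higher and 3.35% lower. The log2 difference of Adenine + IMC minus Adenine was negative for all 11 class II members (median −0.22, range −0.69 to −0.10, lowest limma adjusted p = 0.774) and for 16 of 24 class I members (median −0.07, range −0.63 to 0.60, lowest adjusted p = 0.795). Over all genes it was negative for 7111 of 14696, with a median of 0.01. An edgeR test and a DESeq2 test on the recovered reads also called 0 members, with 8 of 11 class II values negative in each. Class I values were negative for 11 of 24 members in edgeR (median 0.01) and for 12 of 29 in DESeq2 (median 0.04).

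The levels of the Adenine + IMC and Adenine mice overlapped. H2-Aa was at 551 to 1263 CPM (median 730) in Adenine + IMC, beside 553 to 1297 CPM in Adenine, a log2 difference of −0.16 (SE 0.23). H2-Ab1 was at 460 to 1117 CPM (median 602) and H2-Eb1 at 523 to 1233 CPM (median 666), with log2 differences of −0.22 (SE 0.23) and −0.17 (SE 0.23). Cd74 was at 1353 to 3519 CPM (median 1735), a log2 difference of −0.19 (SE 0.25). In class I, H2-K1 was at 640 to 1605 CPM (median 848), H2-D1 at 544 to 1235 (median 730) and B2m at 803 to 1962 (median 1091), with log2 differences of −0.10 (SE 0.22), −0.08 (SE 0.19) and −0.05 (SE 0.21). The groups overlapped for each of these genes, and each difference was smaller than its standard error.

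**Figure D4:**
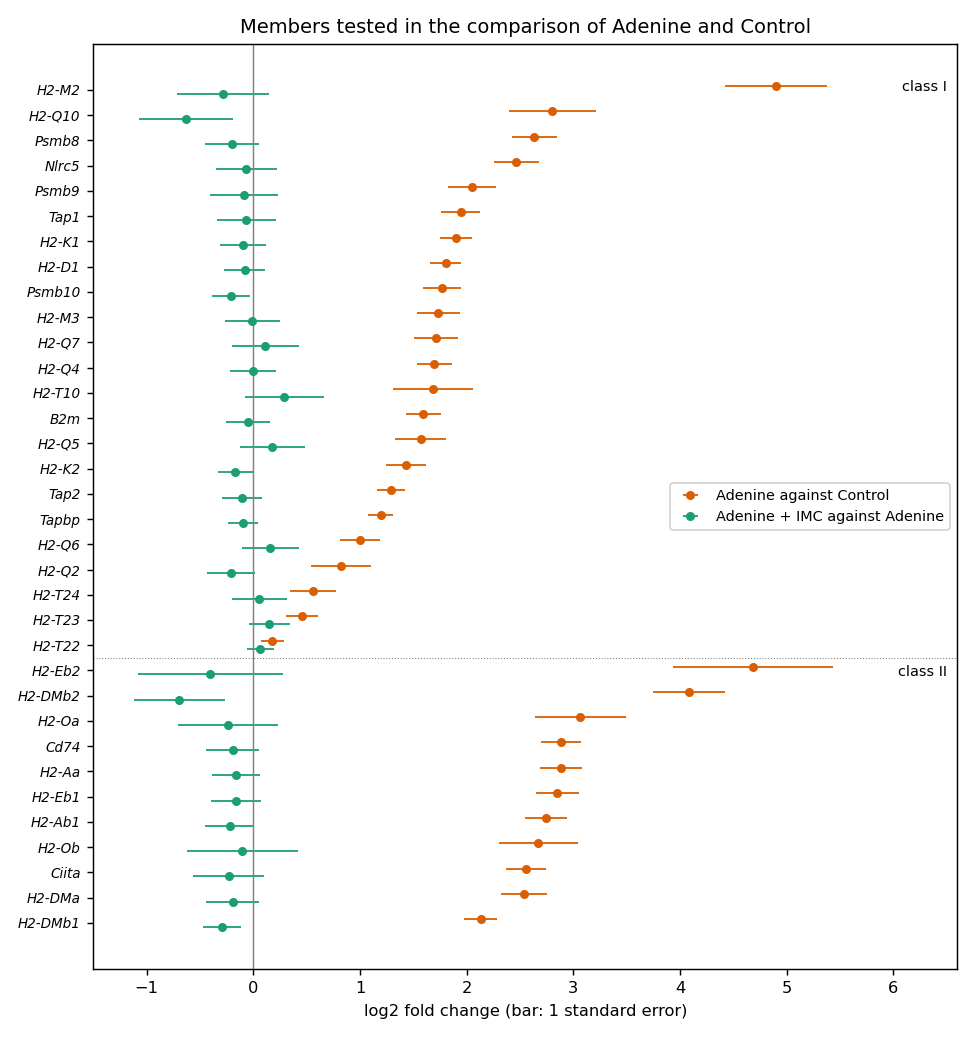
Log2 fold change with 1 standard error on either side for the 34 members tested in the comparison of Adenine and Control, set beside their value in the comparison of Adenine + IMC and Adenine. The adenine values run from 0.18 to 4.90, with class II mostly to the right of class I, and the IMC values lie around 0.

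Mouse 311 carried the upper end of that group. Ciita was at 110 CPM in mouse 311 and at 21.6 to 41.7 CPM in the other 5 mice of its group, and H2-Ob at 77.3 CPM beside 6.77 to 19.4 CPM. H2-Oa was at 23.4 CPM beside 2.199 to 5.86 CPM, and H2-Eb2 at 22.4 CPM beside 1.03 to 4.66 CPM. In class I, Tap1 was at 222 CPM beside 64.4 to 106 CPM, Psmb9 at 92.7 beside 23.2 to 40.2, H2-Q7 at 224 beside 53.4 to 96.9 and H2-Q6 at 231 beside 62.6 to 112. The excess over the next highest of the 17 mice was 2.37-fold for H2-Ob, 2.03-fold for H2-Oa, 1.87-fold for H2-Eb2 and 1.73-fold for Ciita, but 1.04-fold for H2-Ab1 and 1.03-fold for H2-Eb1, while H2-Aa and H2-DMb1 were higher in mouse 308 of the Adenine group.

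Several summed marker levels were also highest in this mouse. The summed level of 6 B cell markers was 318 CPM in mouse 311 and 139 CPM at most in the other 16 mice, that of 6 T cell markers 246 CPM beside 160 CPM, and that of 5 plasma cell markers 2961 CPM beside 1182 CPM. Jchain alone made 2273 CPM of the plasma cell sum, and Sdc1 of the same list was not highest in mouse 311 (79.6 CPM, beside up to 115 in Adenine). The leukocyte marker Ptprc was at 347 CPM beside 226 CPM, and the sums of the dendritic cell markers (211 beside 208 CPM), the interferon signalling genes (1780 beside 1514 CPM) and the co-stimulatory genes (177 beside 137 CPM) were highest there too. The summed level of 6 macrophage markers was 798 CPM in mouse 311 and up to 903 CPM in the others. The part of these cells in the members' values was not tested.

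**Figure D5:**
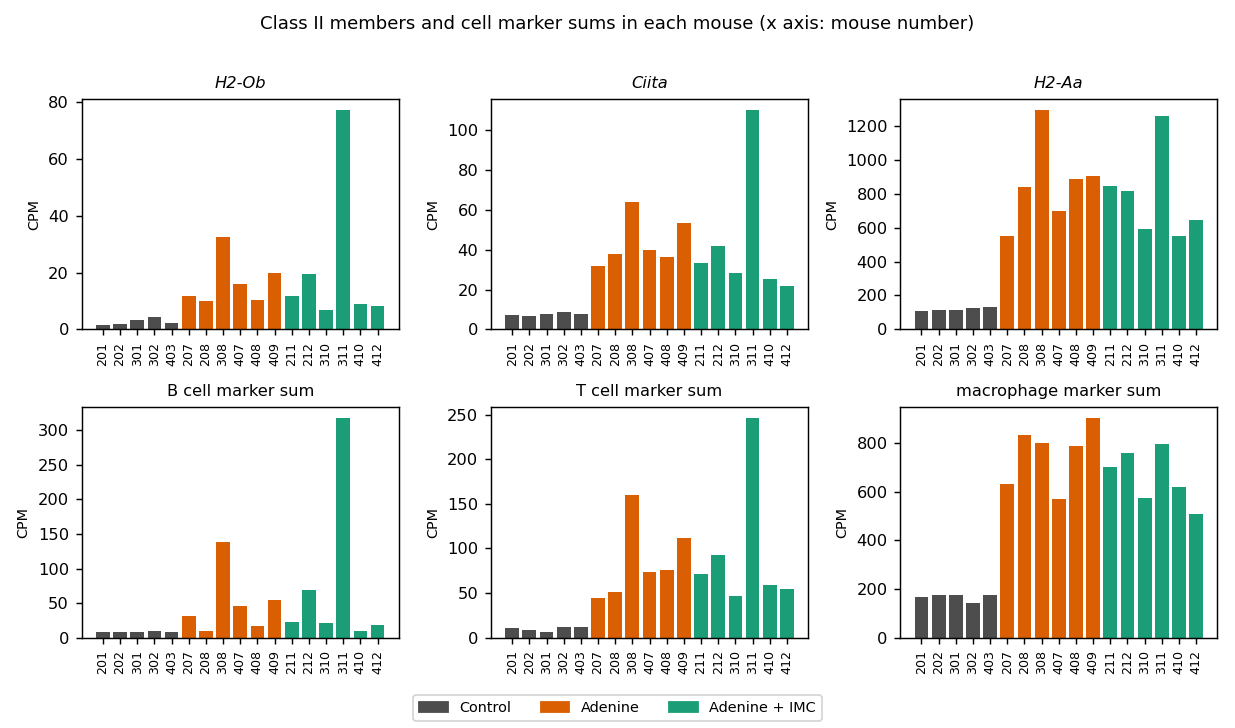
Level of H2-Ob, Ciita and H2-Aa and summed level of the B cell, T cell and macrophage markers in each mouse, in CPM, with a bar per mouse named by its number and coloured by group. Mouse 311 and then mouse 308 have the tallest bars for H2-Ob, Ciita and the B and T cell markers, and mouse 308 the tallest for H2-Aa, while the macrophage sum is tallest in mouse 409.

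Without mouse 311 the class II values moved down. The median log2 difference of Adenine + IMC minus Adenine became −0.42 for class II and −0.23 for class I, beside −0.00 for all genes. At an unadjusted p-value below 0.05, 4 of 11 class II and 1 of 23 class I members were then lower, beside 5.25% of all genes, and 0 members were called at an adjusted p-value below 0.1 (limma). The member with the largest difference was H2-DMb2, singled out after its values were seen. It was at 6.44, 10.9, 12.9, 15.8 and 18.9 CPM in the other 5 Adenine + IMC mice, at 60.9 CPM in mouse 311 and at 19.0 to 50.1 CPM in Adenine. Its log2 difference was −0.69 (SE 0.43, limma adjusted p = 0.774) with all mice and −1.08 without mouse 311 (two-sided exact permutation p = 0.00866, lowest p adjusted over the 35 members 0.303). When each mouse of Adenine and Adenine + IMC was left out in turn, the class II median ran from −0.42 to −0.08. The class I median ran from −0.23 to 0.08. The lower ends were without mouse 311 and the upper ends without mouse 308 of the Adenine group.

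The first digit of the mouse number (2, 3 or 4), whose meaning the labels do not state, was also used as a block. The limma fit with it called 0 members, with 2 of 11 class II and 1 of 24 class I members lower at an unadjusted p-value below 0.05, beside 6.26% of all genes. With this block and without mouse 311, H2-DMb2 was called lower in Adenine + IMC (log2 difference −1.15, limma adjusted p = 0.0419), as were 1.83% of all genes (268 of 14659, with 297 higher). In the same fit, 6 of 11 class II and 6 of 23 class I members were lower at an unadjusted p-value below 0.05, beside 8.32% of all genes. That fit was chosen after mouse 311 was seen to stand apart.

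The immunoproteasome ratios of the Adenine + IMC mice also overlapped those of the Adenine mice. The log2 ratio of Psmb8 to Psmb5 was 0.59 to 2.89 (mean 1.49 ± 0.82, SD, n = 6), that of Psmb9 to Psmb6 −1.94 to 0.26 (mean −1.35 ± 0.84) and that of Psmb10 to Psmb7 −1.26 to −0.36 (mean −0.86 ± 0.32). The differences from Adenine were −0.04, −0.03 and −0.33 (two-sided exact permutation p = 0.911, 0.95 and 0.175). Psmb8 was at 36.7 to 112 CPM (median 49.9), Nlrc5 at 42.0 to 147 CPM (median 55.2) and Tap2 at 46.8 to 100 CPM (median 58.6) in Adenine + IMC.

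The third comparison set Adenine + IMC against Control, and it shares the Control mice with the first. All 11 class II members tested were higher (median log2 fold change 2.70, range 1.83 to 4.88), as were 22 of 24 class I members (median 1.71, range 0.23 to 4.86). Over the 14578 genes tested by edgeR, 30.9% were higher and 32.3% lower. The groups did not overlap for 11 of 11 class II and 20 of 27 class I members, beside 16.16% of all genes. Side by side with the values against Control in Adenine, the log2 fold change was 2.70 (SE 0.21) beside 2.88 for H2-Aa, 2.71 (SE 0.26) beside 2.88 for Cd74, 2.52 (SE 0.42) beside 2.56 for Ciita, 1.82 (SE 0.23) beside 1.90 for H2-K1 and 2.46 (SE 0.32) beside 2.47 for Nlrc5. Without mouse 311 the median was 2.32 over 10 class II and 1.44 over 22 class I members tested, and the fold changes that moved by over 1.5 times were those of H2-Ob (3.06 to 2.03), H2-Oa (3.24 to 2.34), H2-DMb2 (3.68 to 2.97) and H2-M2 (4.86 to 4.15). H2-Eb2, which gives the upper end of the class II range (4.88), was below the filter without mouse 311, and likewise without mouse 211, 212, 310 or 410. H2-Q10 was below the filter without mouse 211, 212, 310, 311 or 412 and was called in the other alternatives. Mouse 311 held 198 of the 280 H2-Eb2 reads in the Adenine + IMC group. H2-Q2 was called by a narrow margin (0.55, edgeR adjusted p = 0.0991) and was not called without mouse 201, 302, 403, 211 or 311, where the adjusted p was 0.12 to 0.222. It was also not called with the block of first digits (edgeR adjusted p = 0.125), with no filter on low counts (edgeR adjusted p = 0.148) or by DESeq2 (adjusted p = 0.158). H2-T22 and the pseudogene H2-T-ps were not called (edgeR adjusted p = 0.18 and 0.255), and H2-T22 was called without mouse 310 or 412 (edgeR adjusted p = 0.0847 and 0.0831). H2-T22 was also called with upper-quartile scaling (edgeR adjusted p = 0.0722), with library totals alone (0.00736) and in a fit of all 17 mice (0.096), and library totals alone also called H2-T-ps (edgeR adjusted p = 0.074).

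The levels of the members were also summed. For class II the sum was 612 to 797 CPM in Control, 3240 to 6964 CPM (median 4862) in Adenine and 3005 to 7602 CPM (median 3878) in Adenine + IMC, or 3005 to 4538 CPM without mouse 311. For class I it was 1262 to 1562 CPM in Control, 3324 to 5766 CPM (median 3922) in Adenine and 2852 to 6947 CPM (median 3716) in Adenine + IMC, or 2852 to 4266 CPM without mouse 311.

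Other genes of the pathway were counted as lists. In class I processing and loading, 5 of 16 genes were higher and 4 lower in Adenine than in Control, with a median log2 fold change of −0.04. These shares were below those over all genes, 35.1% higher and 32.2% lower. Those higher were the proteasome activator subunits Psme1 and Psme2 (1.05 and 0.95), the tapasin relative Tapbpl (1.08), and the MHC-like genes Mr1 and Cd1d1 (0.70 and 1.71). Those lower were Psmb7, the chaperone Canx (−0.70), the peptidase Lnpep (−0.71) and the immunoglobulin receptor Fcgrt (−0.44). General chaperones of the endoplasmic reticulum that also fold class I chains, Calr, Pdia3 and Hspa5, did not pass (adjusted p = 0.201, 0.131 and 0.117, edgeR).

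In class II processing and transcription, 6 of 13 genes were higher and 2 lower, beside 35.1% and 32.2% of all genes. Ctss, the protease that removes the invariant chain in antigen-presenting cells, was higher by 3.97 on the log2 scale (edgeR adjusted p = 3.11e-09), more than any class II member except H2-DMb2 and H2-Eb2. Ifi30, a thiol reductase of the endosome, was higher by 1.55. Of the factors that sit on the X and Y boxes, Rfx5 (0.66) and Nfya (0.76) were higher and Nfyc was lower (−0.48), while Rfxap, Rfxank, Nfyb and Creb1 did not pass (log2 fold changes −0.06, 0.10, 0.03 and 0.17).

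In interferon signalling, 12 of 13 genes were higher in Adenine and 0 lower, beside 35.1% and 32.2% of all genes, with a median log2 fold change of 1.32. The receptor chains Ifngr1 and Ifngr2 were higher by 1.39 and 1.46, the factor Irf1 by 1.57, and the feedback inhibitor Socs1 by 2.42. Jak2 did not pass (−0.03). Ifng itself had 0 to 3 reads in the Control mice, 1 to 7 in the Adenine mice and 1 to 11 in the Adenine + IMC mice and was not tested. Of the co-stimulatory genes, 6 of 6 were higher, against the same 35.1%, among them Cd86 (2.58), Cd40 (2.32) and Cd80 (3.10). Between Adenine + IMC and Adenine, 0 genes of these 4 lists were called by limma.

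Markers of immune cells moved with the members. All 6 macrophage markers (Adgre1, Csf1r, Cd68, Mrc1, C1qa and Itgam) and all 7 dendritic cell markers tested were higher in Adenine than in Control, as were 5 of 6 B cell, 4 of 4 plasma cell and 6 of 6 T cell markers, beside 35.1% of all genes. Of the markers of kidney cells, 5 of 5 for the proximal tubule and 2 of 4 for the endothelium were lower and 0 higher, beside 32.2% of all genes lower. The summed macrophage markers were at 142 to 176 CPM in Control, 569 to 903 in Adenine and 510 to 798 in Adenine + IMC, and the dendritic cell markers at 33.3 to 46.2, 126 to 208 and 98.9 to 211 CPM. The B cell markers were at 7.97 to 9.09, 9.89 to 139 and 9.31 to 318 CPM, and Cd79a and Pax5 were at 0 reads in 1 and 2 of the 5 Control mice. The leukocyte marker Ptprc was at 19.1 to 29.6, 92.8 to 226 and 83.7 to 347 CPM. Without mouse 311, the upper end in Adenine + IMC was 69.1 CPM for the B cell markers and 130 CPM for Ptprc. It was 164 CPM for the dendritic cell and 760 CPM for the macrophage markers. The share of these cells in the rise of class I and class II, as against expression in kidney cells, was not tested.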

How the data were processed

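RNA was read as 50-base single-end sequences from TruSeq libraries of total kidney RNA. The study's methods name STAR on mm10 and DESeq2, and the submitters' processing notes name Trimmomatic 0.39, FastQC 0.11.8, Bowtie2 2.2.5, HTSeq 0.9.1 and DESeq2. The annotation release is not given in the sources used here. The deposited raw counts cover Control and Adenine mice. The deposited signal values for Adenine and Adenine + IMC mice are counts the authors divided by size factors, and 100% of those above 0 were whole multiples of 1 read (tolerance 0.001 reads). Each table lists genes with 5 reads or more in all. The authors' columns comparing Adenine + IMC with Adenine (mean, log2 fold change, its error, statistic and p-values) were not used, and 0 sample columns were left unassigned.

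Adenine and Control were compared with edgeR 4.0.16 (quasi-likelihood test, TMM, filterByExpr), Adenine + IMC and Adenine with limma 3.58.1 on log2(normalized count + 1) for genes with a mean of 10 or more (fold changes of low genes are understated on this scale), and Adenine + IMC and Control with edgeR on raw and recovered reads. R 4.3.3, DESeq2 1.42.0, Python 3.11.15 and scipy 1.17.1 were also used. P-values were adjusted over all genes by the Benjamini-Hochberg method, with a threshold of 0.1. Gene positions and exon lengths came from GENCODE on GRCm38. Scripts were tested on simulated data. Named genes were the members and listed pathway and marker genes. The members and lists were chosen with earlier results of these data known. Alternatives were other scalings, filters, pseudocounts and tools, a block on the leading digit of each mouse's number, and leaving out each mouse. The mice carry separate numbers and are taken as separate animals. Some single genes of the marker and pathway lists are not reported here.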

Additional observations from a re-analysis of the deposited data

Results flagged for a closer look

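Among 57 groups of 5 or 6 values of the main members and ratios, 16 held a mouse that stood apart by Dixon's criterion, where chance flags about 1 in 20 independent groups. These groups are not independent, since they hold related genes measured in the same 17 mice, so no count is set as the chance level. Of the 16, 12 were mouse 311 of the Adenine + IMC group. It had 1962 CPM of B2m (803 to 1168 in the other 5 mice of its group), 147 of Nlrc5 (42.0 to 76.5), 222 of Tap1 (64.4 to 106), 92.7 of Psmb9 (23.2 to 40.2), 1233 of H2-Eb1 (523 to 788), 3519 of Cd74 (1353 to 2016), 110 of Ciita (21.6 to 41.7) and 77.3 of H2-Ob (6.77 to 19.4). It also had 191.0 CPM of H2-T23 (91.7 to 113), 231 of H2-Q6 (62.6 to 112) and 224 of H2-Q7 (53.4 to 96.9), and a log2 ratio of Psmb9 to Psmb6 of 0.26 (−1.94 to −1.26). Mouse 308 stood apart in the Adenine group with 155 CPM of Tap1, 98.9 of Psmb8 and 68.5 of Psmb9. Mouse 403 stood apart in Control with 15.3 CPM of Psmb8 (8.68 to 9.62 in the others).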

How the results depend on the processing

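Of the summary results under all alternatives, 341 kept their direction and call or, for counts of members, stayed within 1.5 times the reported count, 4 moved further and 11 changed sign, and of the single-gene results 844 stayed and 36 changed sign. The class I members higher ran from 22 to 23 in Adenine and from 20 to 24 in Adenine + IMC against Control. The class I members lower in Adenine than in Control went from 0 to 1 with DESeq2 and with no filter, and in Adenine + IMC against Control from 0 to 1 with no filter (H2-Bl in each, which the filter had removed). The class II members lower in Adenine + IMC than in Adenine went from 0 to 1 (H2-DMb2) with the block and without mouse 311. Scaled by library totals alone, Adenine against Control had 7990 genes higher and 2497 lower, and the median of all genes moved from 0.02 to 0.32. Between Adenine + IMC and Adenine, leaving out each mouse moved the log2 ratio difference between −0.32 and 0.14 for Psmb8 to Psmb5 and between −0.35 and 0.13 for Psmb9 to Psmb6. The log2 difference then ran from −0.21 to 0.058 for B2m, −0.23 to 0.014 for H2-D1, −0.27 to 0.002 for H2-K1, −0.59 to 0.12 for H2-Ob, −0.074 to 0.31 for H2-Q6, −0.17 to 0.27 for H2-Q7, −0.006 to 0.27 for H2-T23, −0.31 to 0.087 for Nlrc5, −0.36 to 0.087 for Psmb9 and −0.31 to 0.068 for Tap1. It changed sign with edgeR on recovered reads (Nlrc5 0.005, Tap1 0.028, Psmb9 0.021, H2-Ob 0.39), with DESeq2 on them (0.018, 0.044, 0.032 and 0.40), with the block of first digits (H2-Q7 −0.003) and with the block without mouse 311 (H2-T23 −0.008, H2-Q6 −0.073, H2-Q7 −0.18). These values did not pass any test, and the cause was not tested. Over all genes, Adenine + IMC against Adenine had 73 higher and 60 lower with the block, 297 and 268 with the block without mouse 311, and 21 and 16 with DESeq2, beside 0 in limma and in edgeR (394 and 591 at an unadjusted p-value below 0.05). Depth limited H2-Eb2, H2-M2, H2-Bl and Ifng, each at a few reads per Control mouse.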
